A study of Homo sapiens with 45 samples.

Results

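The BCL2 family of apoptosis regulators was followed in SUDHL6 cells, a human diffuse large B-cell lymphoma line of germinal-centre type, after siRNA silencing of 5 transcription factors. The genes taken were BCL2, BCL2L1, MCL1, BCL2A1, BAX, BAK1, BBC3, BCL2L11, BID and PMAIP1, and their members here are all array probes annotated with 1 of these 10 symbols, each probe kept apart. There were 21 such probes for 9 of the 10 genes, out of 45013 probes and 19431 named genes on the array. BAK1 is given no probe by the annotation used here, and its level was not analysed here.

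All cells were nucleofected with 80 pmol of an siRNA pool, and RNA was taken 20 hours later for hybridisation to Illumina bead arrays. In the first set, siHMGA1, siFOXM1, siTFDP1 and siATF5 had 3 arrays each and their non-target control siNT4 had 4. The joint silencings of that set were siHMGA1+siFOXM1 (3 arrays), siHMGA1+siTFDP1 (4), siHMGA1+siATF5 (3) and siTFDP1+siATF5 (2). Their control, siNT4+siNT4 (2), is the doubled non-target control, and the same 80 pmol is recorded for single and joint groups. A separate set whose titles carry the letter A, called set A here, held 3 arrays each of siNFYB, siFOXM1, siNFYB+siFOXM1, siNT4 and siNT4+siNT4. Every group is the same 1 cell line, and the labels name no engineered allele. Whether replicates came from separate cultures is not stated in the labels, and the p-values then reflect only how far arrays of a group lie apart, which may be technical.

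The silenced proteins are all regulators of transcription. NFYB belongs to NF-Y, which binds CCAAT boxes, and ATF5 is a bZIP factor active under stress. TFDP1 pairs with E2F proteins on DNA, FOXM1 is a forkhead factor, and HMGA1 bends chromatin as an architectural protein. One array, siTFDP1+siATF5 replicate 3, stood apart. Its median correlation with the other arrays was 0.783 against 0.975 to 0.993 elsewhere, 44.5% of its probes lay over 0.5 log2 above its median (called above background here) against 24.2% to 30.6%, and 37.4% of its probes shared 1 minimum value. It was left out of the model reported, and member calls that change with it are given both ways. As a check of silencing, HMGA1 fell by 1.55 log2 in siHMGA1, TFDP1 fell by 1.06 in siTFDP1 and ATF5 fell by 0.69 in siATF5 (limma adjusted p = 2.8e-11, 8.3e-09 and 0.00546). TFDP1 also fell by 1.86 in siATF5 (adjusted p = 6.5e-17), further than in siTFDP1. FOXM1 was -0.27 in siFOXM1 and -0.19 in set A, neither past the threshold. It was at -0.38 in siHMGA1+siFOXM1 and -0.26 in siNFYB+siFOXM1, which did not pass either. In each of these comparisons all silenced arrays lay below all controls. NFYB lay near background at 7.10 to 7.49 in siNFYB, overlapping its control with a difference of -0.07, and was at 0.12 in siNFYB+siFOXM1. In the joint silencings HMGA1 was at -0.48 in siHMGA1+siTFDP1 (adjusted p = 0.999, 1 array at 11.27 among the controls), and ATF5 was at -0.10 in siHMGA1+siATF5 (adjusted p = 0.9995, arrays overlapping the controls) and -0.18 in siTFDP1+siATF5. TFDP1 was at -0.76 in siTFDP1+siATF5 (adjusted p = 0.496). The other targets of those pairs passed, except FOXM1 and NFYB. All groups are named by their labels, and a fall of ATF5 was not detected in the libraries labelled siHMGA1+siATF5 and siTFDP1+siATF5. Of the germinal-centre B-cell markers with a probe, 8 of 9 were above background, as were 0 of 6 T-cell, 2 of 5 myeloid, 2 of 4 plasma cell and 0 of 5 stromal or epithelial markers.

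BCL2 proteins decide whether the outer mitochondrial membrane is opened, the committing step of intrinsic apoptosis. The guardians BCL2, BCL-XL (BCL2L1), MCL1 and BFL1 (BCL2A1) hold the pore formers BAX and BAK1 in check. The BH3-only proteins PUMA (BBC3), BIM (BCL2L11), BID and NOXA (PMAIP1) relieve that check, NOXA chiefly by binding MCL1. In follicular lymphoma and in germinal-centre type diffuse large B-cell lymphoma, BCL2 is often joined to the immunoglobulin heavy-chain locus by translocation, which drives its expression.

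The promoters of PMAIP1, BAX and BCL2L11 are printed because they hold, or may be looked at for, binding letters of the silenced factors, and because their genes are described below. Each is the 250 bases before the annotated transcription start, 5′ to 3′ on the gene's strand, from RefSeq (GRCh38.p14). PMAIP1 lies at chr18:59899746-59899995, BAX at chr19:48954625-48954874 and BCL2L11 at chr2:111120664-111120913, all on the plus strand. Capitals mark matches, on either strand, to CCAAT (the NF-Y box), TGTTTAC (a forkhead site), TTTNNCGC (an E2F-type site), TGACG (the core of sites of ATF-type bZIP factors) and TGACGTCA (its palindrome, which contains TGACG).
PMAIP1: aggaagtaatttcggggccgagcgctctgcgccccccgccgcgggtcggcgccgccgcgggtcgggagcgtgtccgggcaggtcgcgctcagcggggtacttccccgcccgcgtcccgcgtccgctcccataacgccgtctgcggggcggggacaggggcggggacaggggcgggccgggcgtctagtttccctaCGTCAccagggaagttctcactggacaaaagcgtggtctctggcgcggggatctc
BAX: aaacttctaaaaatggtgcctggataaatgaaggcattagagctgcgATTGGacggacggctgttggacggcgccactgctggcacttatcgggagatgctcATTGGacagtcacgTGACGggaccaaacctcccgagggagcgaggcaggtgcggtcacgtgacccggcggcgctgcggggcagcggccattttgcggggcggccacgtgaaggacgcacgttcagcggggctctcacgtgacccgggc
BCL2L11: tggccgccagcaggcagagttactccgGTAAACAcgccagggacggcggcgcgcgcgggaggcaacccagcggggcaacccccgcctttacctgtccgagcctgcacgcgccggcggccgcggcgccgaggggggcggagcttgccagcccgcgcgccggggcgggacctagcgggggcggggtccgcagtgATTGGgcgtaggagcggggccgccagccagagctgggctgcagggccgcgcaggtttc
PMAIP1 holds 1 TGACG, read on the opposite strand. BAX holds 2 CCAAT boxes, both on the opposite strand, and 1 TGACG. BCL2L11 holds 1 CCAAT box and 1 forkhead site, both on the opposite strand.

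RefSeq's promoter table held 14 windows for 9 of the 10 genes, MCL1 being the gene without an entry. CCAAT was found for BAX, BAK1, BBC3 and BCL2L11, 4 of the 14 windows, and in 32% of all 35116 windows of that length. TGTTTAC was found for BCL2L11 and in 2.98% of all windows, and TTTNNCGC for BCL2L1 and in 5.92%. TGACG was found for BCL2, BCL2L1, BAX and PMAIP1, 4 windows, and in 21.2% of all, while TGACGTCA was found in no member window and in 1.65% of all. A match is a match of letters, and no binding was measured.

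The deposited values are on a log2 scale with array medians between 6.95 and 6.98. A probe was tested where it was above background on at least 3 of the 44 arrays, which held for 10 of the 21 member probes, in 8 genes. Among the guardians, MCL1 (probes ILMN_1756806 and ILMN_1803988) and BCL2L1 (ILMN_1654118) were above background on all 44 arrays. BCL2 was above background on 26 arrays with ILMN_2363250, annotated to the transcript of the shorter beta form of the protein. The other 3 BCL2 probes, 1 of them annotated to that same transcript and 2 to that of the main alpha form, were above background on none. BCL2 lies at chr18:63123346-63320090 and PMAIP1 at chr18:59899996-59904305 (GRCh38.p14). BCL2A1, with its only probe, passed on 1 array. Both PMAIP1 probes (ILMN_1689525 and ILMN_2098446) were above background on all 44 arrays. The pore former BAX reached that level on 4 arrays with ILMN_1683300, and the BH3-only genes BBC3, BCL2L11 and BID on 4, 7 and 10 arrays with their best probe. The 11 probes that were not tested had means of 6.87 to 7.17. In bulk RNA, fewer cells with a transcript and less transcript per cell cannot be told apart. Levels of different probes are not compared, since each probe has its own response.

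BCL2 rose in siATF5. ILMN_2363250 read 8.17, 8.13 and 7.73 log2 in siATF5 replicates 1 to 3, and 7.31, 7.47, 7.54 and 7.57 in the 4 siNT4 arrays. All 3 silenced arrays lay above all 4 controls, with replicate 3 the nearest to them. The difference was 0.54 log2 (SE 0.13, 95% confidence interval 0.28 to 0.80, n = 3 and 4), or 1.45-fold, with a limma adjusted p = 0.0199 over 13679 probes. This was 1 of 10 member probes to pass, where 3.37% of all probes passed and 1.75% passed upward. Of the 461 probes that passed, 239 rose, against 82 of 309 after quantile normalization and 187 of 721 after median centring. BCL2 was also the 1 of the 10 tested member probes whose arrays did not overlap the controls, as for 10.7% of all tested probes. Counts of probes without overlap cover tested probes throughout.

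The BCL2 call depended on siATF5 replicates 1 and 2. In these 2 arrays 29.4% and 30.6% of all probes were above background, against 25.4% in replicate 3 and 25.2% to 25.9% in siNT4. Without replicate 1 the BCL2 difference was 0.46 (adjusted p = 0.123), and without replicate 2 it was 0.48 (adjusted p = 0.182). Without both it was 0.26, from replicate 3 alone, which is then assumed to vary like the other groups (adjusted p = 0.9998). Once that share entered the model as a covariate, the difference was 0.35 (adjusted p = 0.999). With all 45 arrays in the model the difference was 0.54, as it had to be, since the added array is in neither group. Its adjusted p was then 0.359, and 0.0551% of probes passed. The difference was above 0 in every setting run, while the call was lost in 7 of 20. Settings that left the siATF5 and siNT4 values of this probe untouched could not change the difference. These were all 45 arrays, the first set alone, other filters, another variance estimate and the mean of a gene's tested probes. The 3 BCL2 probes near background differed by -0.04, 0.06 and -0.02 between siATF5 and siNT4, so the rise was seen with 1 of 4 BCL2 probes.

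**Figure D1:**
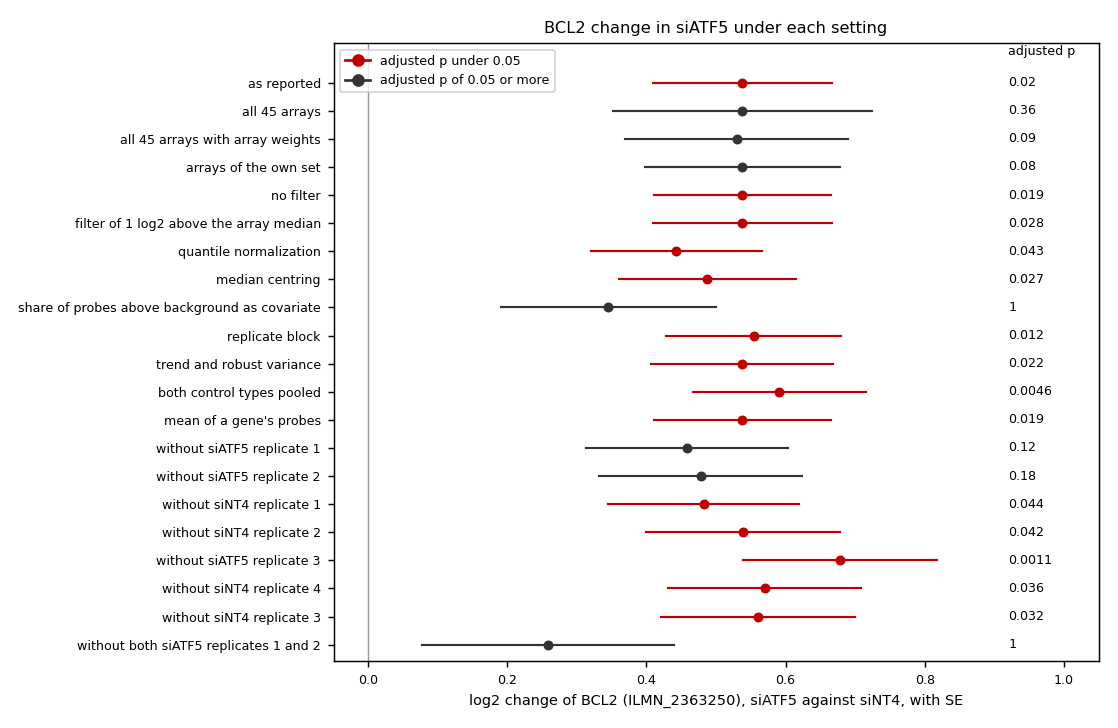
Log2 change of BCL2 (ILMN_2363250) in siATF5 against siNT4 with its SE (x axis, log2) under each setting (y axis), with limma's adjusted p at the right and settings past the threshold in red. The point is right of 0 throughout, from 0.26 without siATF5 replicates 1 and 2 to 0.68 without replicate 3. Settings that leave both groups' values of this probe untouched cannot move it from 0.54.

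In the other single silencings of the first set the same BCL2 probe was also above siNT4, without passing the test. It read 7.82, 7.78 and 7.99 in siTFDP1, all above the 4 controls, a difference of 0.39 (SE 0.13, limma adjusted p = 0.26). In siFOXM1 it read 7.80, 7.94 and 7.74, again above all controls, a difference of 0.36 (adjusted p = 0.368). In siHMGA1 it read 7.97, 7.49 and 7.73 and overlapped the controls, a difference of 0.26 (adjusted p = 1.0). These 4 comparisons share the siNT4 arrays, and are not independent of each other. The share of probes above background in replicates 1 to 3 was 26.2%, 28.6% and 25.1% in siFOXM1 and 27.1%, 25.9% and 26.1% in siTFDP1. In siNT4 it was 25.2% to 25.9%, and the part of this share in the BCL2 readings of siFOXM1 and siTFDP1 was not tested. Tested member probes clear of the controls numbered 0 in siHMGA1, where 3.61% of all tested probes were, and 1 in siFOXM1, where 7.27% were. No member passed in siHMGA1, siFOXM1 or siTFDP1, where 0.00731%, 0% and 0.0512% of all probes passed.

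In set A, BCL2 in siFOXM1 (7.43, 7.27 and 7.43) overlapped siNT4 (7.50, 7.40 and 7.49), with a difference of -0.08 (limma adjusted p = 1.0). The FOXM1 change in the first set exceeded that in set A by 0.44 (95% confidence interval 0.06 to 0.82), which did not pass over all probes (adjusted p = 0.948). BCL2 in siNFYB read 7.68, 7.68 and 7.33, a difference of 0.10 (95% confidence interval -0.18 to 0.38). In siNFYB+siFOXM1 it read 7.33, 7.43 and 7.37 against 7.05, 7.40 and 7.09 in siNT4+siNT4, a difference of 0.20 (adjusted p = 1.0), the smallest p among the members there. One tested member probe, of BCL2L11, stood clear of its controls in siNFYB+siFOXM1, as did 10.4% of all probes, and its readings of 7.18, 7.23 and 7.24 lay below 7.28 to 7.39.

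In the joint silencings of the first set, BCL2 was higher than siNT4+siNT4 (7.40 and 7.22) by 0.14 to 0.31. No member passed, where 0.00731% of all probes did in each of siHMGA1+siFOXM1, siHMGA1+siTFDP1 and siHMGA1+siATF5 and 0% in siTFDP1+siATF5. In siHMGA1+siTFDP1 it read 7.76, 7.55, 7.55 and 7.62, above both controls, with a difference of 0.31 (95% confidence interval 0.01 to 0.60, limma adjusted p = 0.999). BCL2 and BID had the 2 tested member probes that did not overlap there, as for 12.1% of all probes. In siHMGA1+siFOXM1 replicate 1 read 8.03 while replicates 2 and 3 read 7.43 and 7.39. In siHMGA1+siATF5 the readings were 7.71, 7.42 and 7.24, which overlap the controls, and the 1 siTFDP1+siATF5 array in the model read 7.53. The change in siHMGA1+siATF5 minus the sum of the siHMGA1 and siATF5 changes was -0.65 (95% confidence interval -1.19 to -0.12, adjusted p = 0.674), and for siTFDP1+siATF5 the same quantity was -0.71 (adjusted p = 0.336). Both quantities take the labels as given, although ATF5 itself was at -0.10 and -0.18 in these pairs against -0.69 in siATF5. TFDP1 was at -1.86 in siATF5, -1.06 in siTFDP1 and -0.76 in the 1 siTFDP1+siATF5 array. The sum for that pair thus holds a fall of TFDP1 from both single silencings, so it is not a sum over separate targets. Neither departure from additivity passed, where 0.0219% and 0.0512% of probes did.

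Ordered by group mean, the BCL2 probe was highest in siATF5 at 8.01 ± 0.24 (SD, n = 3), then siTFDP1 at 7.87 ± 0.11, siFOXM1 at 7.83 ± 0.10 and siHMGA1 at 7.73 ± 0.24 (n = 3 each). siNT4 stood at 7.47 ± 0.12 (n = 4) and set A's siNT4 at 7.46 ± 0.06 (n = 3). The lowest were siNT4+siNT4 at 7.31 ± 0.13 (n = 2) and set A's siNT4+siNT4 at 7.18 ± 0.19 (n = 3). Other groups lay between siHMGA1 and siNT4, and between set A's siNT4 and the first set's siNT4+siNT4. In the full order of all groups, neighbours differed by less than the larger of their SDs. Groups that are not neighbours there could differ by more than both SDs, as siHMGA1 and siNT4 did, by 0.26.

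**Figure D2:**
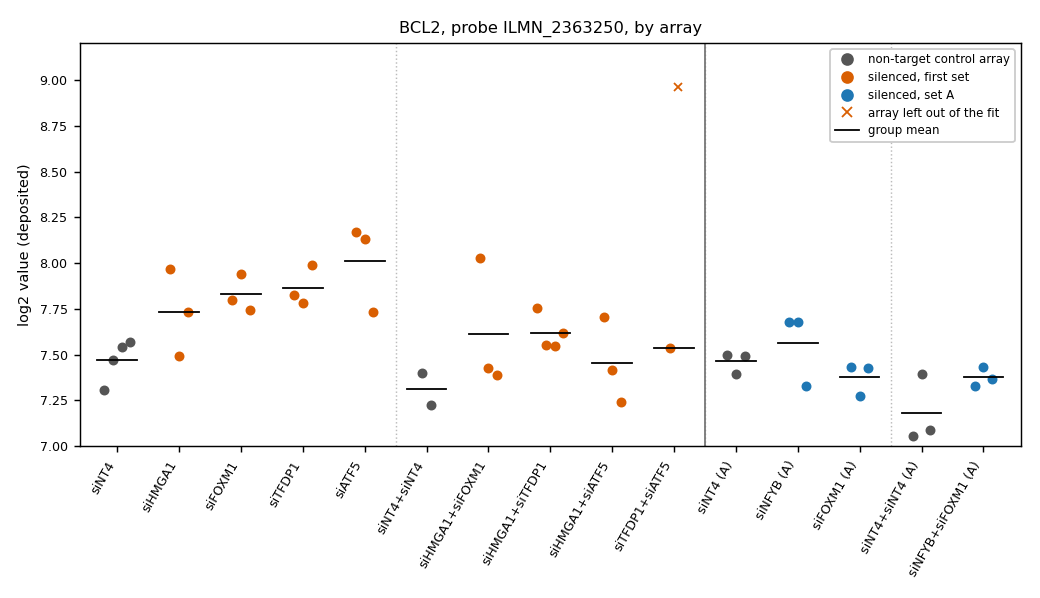
Deposited log2 value of BCL2 (ILMN_2363250, y axis) on each array by siRNA group (x axis), with group means as lines and set A right of the solid line. The 4 single silencings of the first set average 7.73 to 8.01 and siNT4 averages 7.47. The left-out array of siTFDP1+siATF5 (cross) reads 8.96.

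MCL1 and BCL2L1, the guardians expressed on every array, passed the test in 0 of the 19 comparisons, with limma on 44 arrays, and at an unadjusted p under 0.05 also in 0. BCL2L1 lay between 9.06 and 9.47 on all 44 arrays, and its group means spanned only 0.19 log2, from 9.19 in siHMGA1+siFOXM1 to 9.38 in siNFYB. Its changes in the 11 silencings were -0.10 to 0.10, with 95% confidence intervals that reached from -0.32 to 0.37. MCL1 with ILMN_1756806 differed by -0.04 to 0.17. With ILMN_1803988, MCL1 spread more, reading 10.62, 10.55 and 10.93 in siATF5 against 10.52, 10.79, 11.30 and 10.97 in siNT4, a difference of -0.20 (95% confidence interval -0.49 to 0.09). In siHMGA1+siATF5 the same probe read 11.34, 11.24 and 11.19, above both siNT4+siNT4 arrays at 10.96 and 11.06. That difference of 0.25 (limma adjusted p = 1.0) had the smallest p of the members in siHMGA1+siATF5, where 2 of 10 member probes and 24.4% of all probes did not overlap between groups. Both of these were MCL1 probes. The MCL1 probes correlated at r = 0.31 over the 44 arrays after each set's mean was subtracted.

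PMAIP1, the NOXA gene, was the BH3-only member with the clearest signal. With ILMN_2098446 it read 9.88, 10.06 and 10.12 in siTFDP1, all below the siNT4 arrays at 10.33, 10.56, 10.18 and 10.69. The difference was -0.42 (SE 0.15, 95% confidence interval -0.73 to -0.12) and did not pass (limma adjusted p = 0.301). PMAIP1 and BCL2 were the 2 member probes of 10 whose siTFDP1 and siNT4 arrays did not overlap, where 10.8% of all probes did not. The difference of the same PMAIP1 probe was -0.30 in siFOXM1, -0.28 in siATF5, -0.16 in siHMGA1 and -0.40 in siHMGA1+siFOXM1, none past the threshold. With ILMN_1689525 the siTFDP1 difference was -0.02, so the lower reading was not shared by the 2 probes. Without siATF5 replicate 3, ILMN_2098446 passed in siATF5 at -0.50 (adjusted p = 0.0264), as did BBC3 and BID, described below. In that fit 2402 of 13661 probes passed, against 461 of 13679 with replicate 3.

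The largest PMAIP1 difference between any 2 groups compared lay between the controls. In set A, ILMN_1689525 read 8.67, 9.05 and 8.85 with siNT4+siNT4 and 8.39, 8.53 and 8.11 with siNT4 alone. It was the 1 tested member probe without overlap, as for 20.4% of all tested probes, and in the first set there were 0, against 13.1%. The difference was 0.51 (SE 0.14, 95% confidence interval 0.22 to 0.80), with a limma adjusted p = 0.101. It passed with the arrays of set A alone (adjusted p = 0.0086) and with array weights on all 45 arrays (0.00544). With set A alone, 599 probes passed, against 55 in the model reported. That 55 became 0 when set A's siNT4+siNT4 replicate 3 was left out. ILMN_2098446 read 10.83, 10.87 and 10.60 against 10.24, 10.61 and 10.42, a difference of 0.34 (adjusted p = 0.46). In the first set, with 2 siNT4+siNT4 arrays, the differences were 0.28 and 0.22 (adjusted p = 1.0 each), ILMN_1689525 reading 8.53 and 8.97 against 8.27 to 8.57. No member passed in either control comparison, where 0.402% of probes passed in set A and 0% in the first set. The share of probes above background was 25.0% to 25.2% in set A's siNT4+siNT4 and 24.8% to 25.2% in its siNT4. Joint silencings were set against siNT4+siNT4 of their own set throughout.

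**Figure D3:**
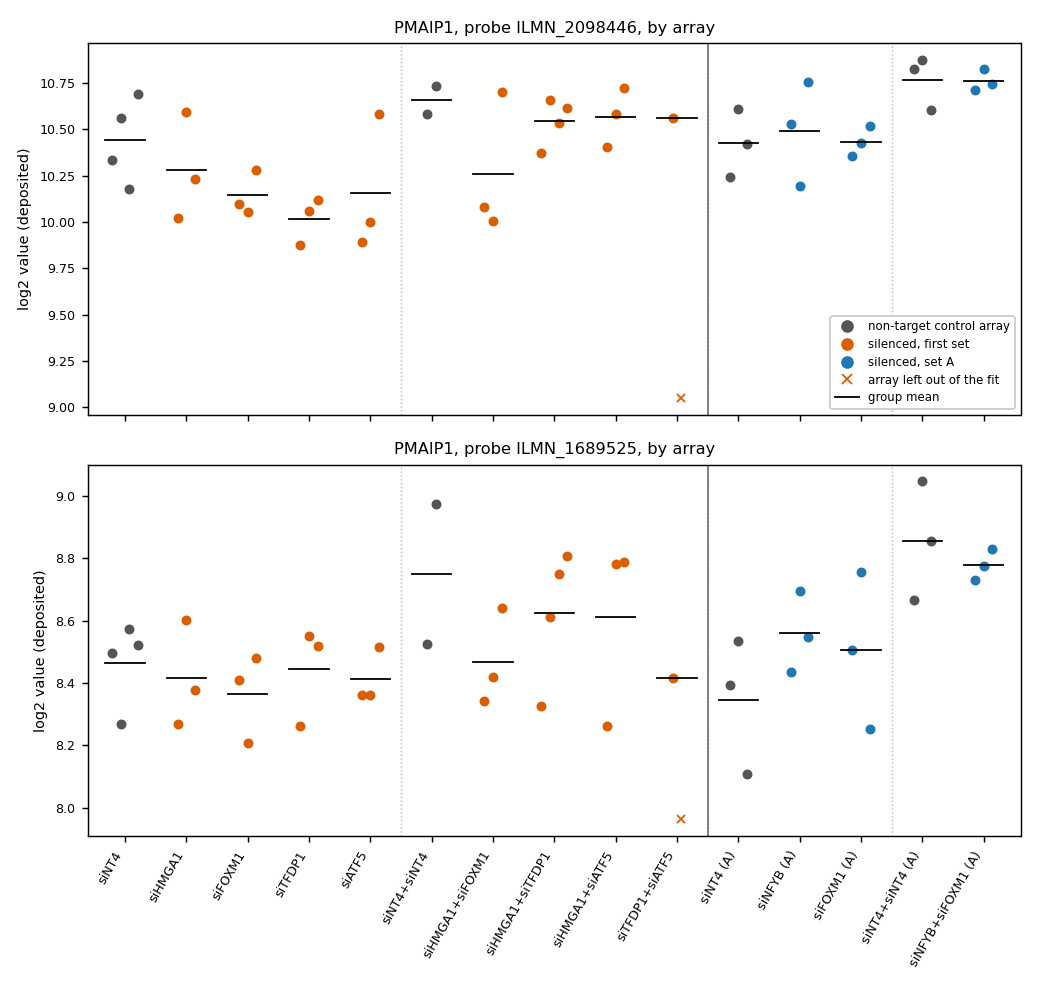
Deposited log2 values of PMAIP1 on each array by siRNA group for ILMN_2098446 (top) and ILMN_1689525 (bottom), drawn as for BCL2. The upper probe averages 10.02 in siTFDP1 and 10.44 in siNT4, and both probes average highest in set A's siNT4+siNT4, at 10.77 and 8.85.

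In set A, PMAIP1 was also the member of smallest p in siNFYB and in siFOXM1, and neither came near the threshold. ILMN_1689525 read 8.43, 8.70 and 8.55 in siNFYB, a difference of 0.21 (95% confidence interval -0.08 to 0.50, limma adjusted p = 1.0). In siFOXM1 it read 8.51, 8.76 and 8.25, a difference of 0.16. Both groups overlapped the control, and 0 of 10 member probes stood clear of the controls in siNFYB and 0 in siFOXM1, where 9.43% and 9.85% of all probes did. In siNFYB+siFOXM1 PMAIP1 read 8.73 to 8.83, within the range of its control. Of the members with CCAAT in the window searched, BAX differed by 0.05 in siNFYB, BBC3 by -0.08 and BCL2L11 by -0.01, each with an interval across 0. Whether these genes respond to a fall of NFYB was not tested, since NFYB itself was at -0.07 in siNFYB.

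The remaining BH3-only genes lay closer to background. BCL2L11, the BIM gene, read 7.32, 7.81 and 7.64 in siHMGA1+siFOXM1 against 7.17 and 7.32 in siNT4+siNT4, narrowly without overlap. It was 1 of 4 tested member probes without overlap there, as for 20.0% of all probes. The others, of BCL2L1, MCL1 (ILMN_1803988) and BID, lay below both controls. The BCL2L11 difference of 0.35 (SE 0.13) had the smallest p of the members there and did not pass (limma adjusted p = 0.506). BCL2L11 differed by 0.26 in siFOXM1 (7.74, 7.52 and 7.27) and by 0.26 in siTFDP1 (7.68, 7.28 and 7.58), against 7.20 to 7.30 in siNT4, and by -0.03 in set A's siFOXM1. In siFOXM1 and siTFDP1 the lowest array lay within the range of the controls.

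BBC3, the PUMA gene, read 7.01, 6.83 and 7.21 in siATF5 and 7.12, 7.31, 7.41 and 7.41 in siNT4. The groups overlapped through siATF5 replicate 3 and siNT4 replicate 1, and the difference of -0.30 (SE 0.11) did not pass (limma adjusted p = 0.12). It passed at -0.40 without siATF5 replicate 3 (adjusted p = 0.0266) and at -0.32 with both kinds of control pooled (0.0456). In those fits 2402 of 13661 and 1072 of 13679 probes passed. BID, which caspase-8 cleaves to link death receptors to mitochondria, read 7.01, 6.85 and 7.36 in siATF5 against 7.05 to 7.51, a difference of -0.25 (adjusted p = 0.214). It too passed without replicate 3, at -0.40 (adjusted p = 0.0287). For both genes the lowest readings were again those of the 2 siATF5 arrays with the larger share of probes above background. In siTFDP1+siATF5, BBC3 had the smallest p, with 7.11 on the 1 array in the model against 7.32 and 7.47, a difference of -0.28 (adjusted p = 0.999). With 1 array, 8 of 10 member probes and 66.2% of all probes did not overlap in that comparison. With the left-out array in the model, 8 of 10 member probes passed there, as did 52.6% of all probes. BCL2 was then at 0.94 and BAX at 0.67, MCL1 at -0.72 and -1.04, BBC3 at -0.52, BID at -0.49, and PMAIP1 at -0.56 and -0.85 (limma adjusted p from 0.0056 to 0.031).

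BAX was near background on the 44 arrays and passed in 0 comparisons on them. With all 45 arrays it passed in siTFDP1+siATF5 at 0.67 (limma adjusted p = 0.0193), as did 52.6% of all probes. Without the added array its difference there was -0.07, from 1 array. ILMN_1683300 read 7.22 to 7.41 in siNT4 and 7.23, 7.77 and 7.24 in siATF5, a difference of 0.06. All arrays of set A read 7.01 to 7.23, while siNT4 and siNT4+siNT4 of the first set read 7.18 to 7.41, a difference between sets that was not tested. A second probe, ILMN_2258383, was above background on only 1 of 44 arrays and was not tested. It read 7.67, 7.19 and 7.20 in siATF5 against 7.16, 6.97, 6.86 and 6.98, and in a fit without the filter its difference of 0.36 passed (adjusted p = 0.0332), where 2.55% of 45013 probes did. The other BAX probe, ILMN_2321064, stood at 0.0043. BCL2A1, the BFL1 gene, read 6.74 to 7.15 on every one of the 44 arrays but siATF5 replicate 2, at 7.62.

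**Figure D4:**
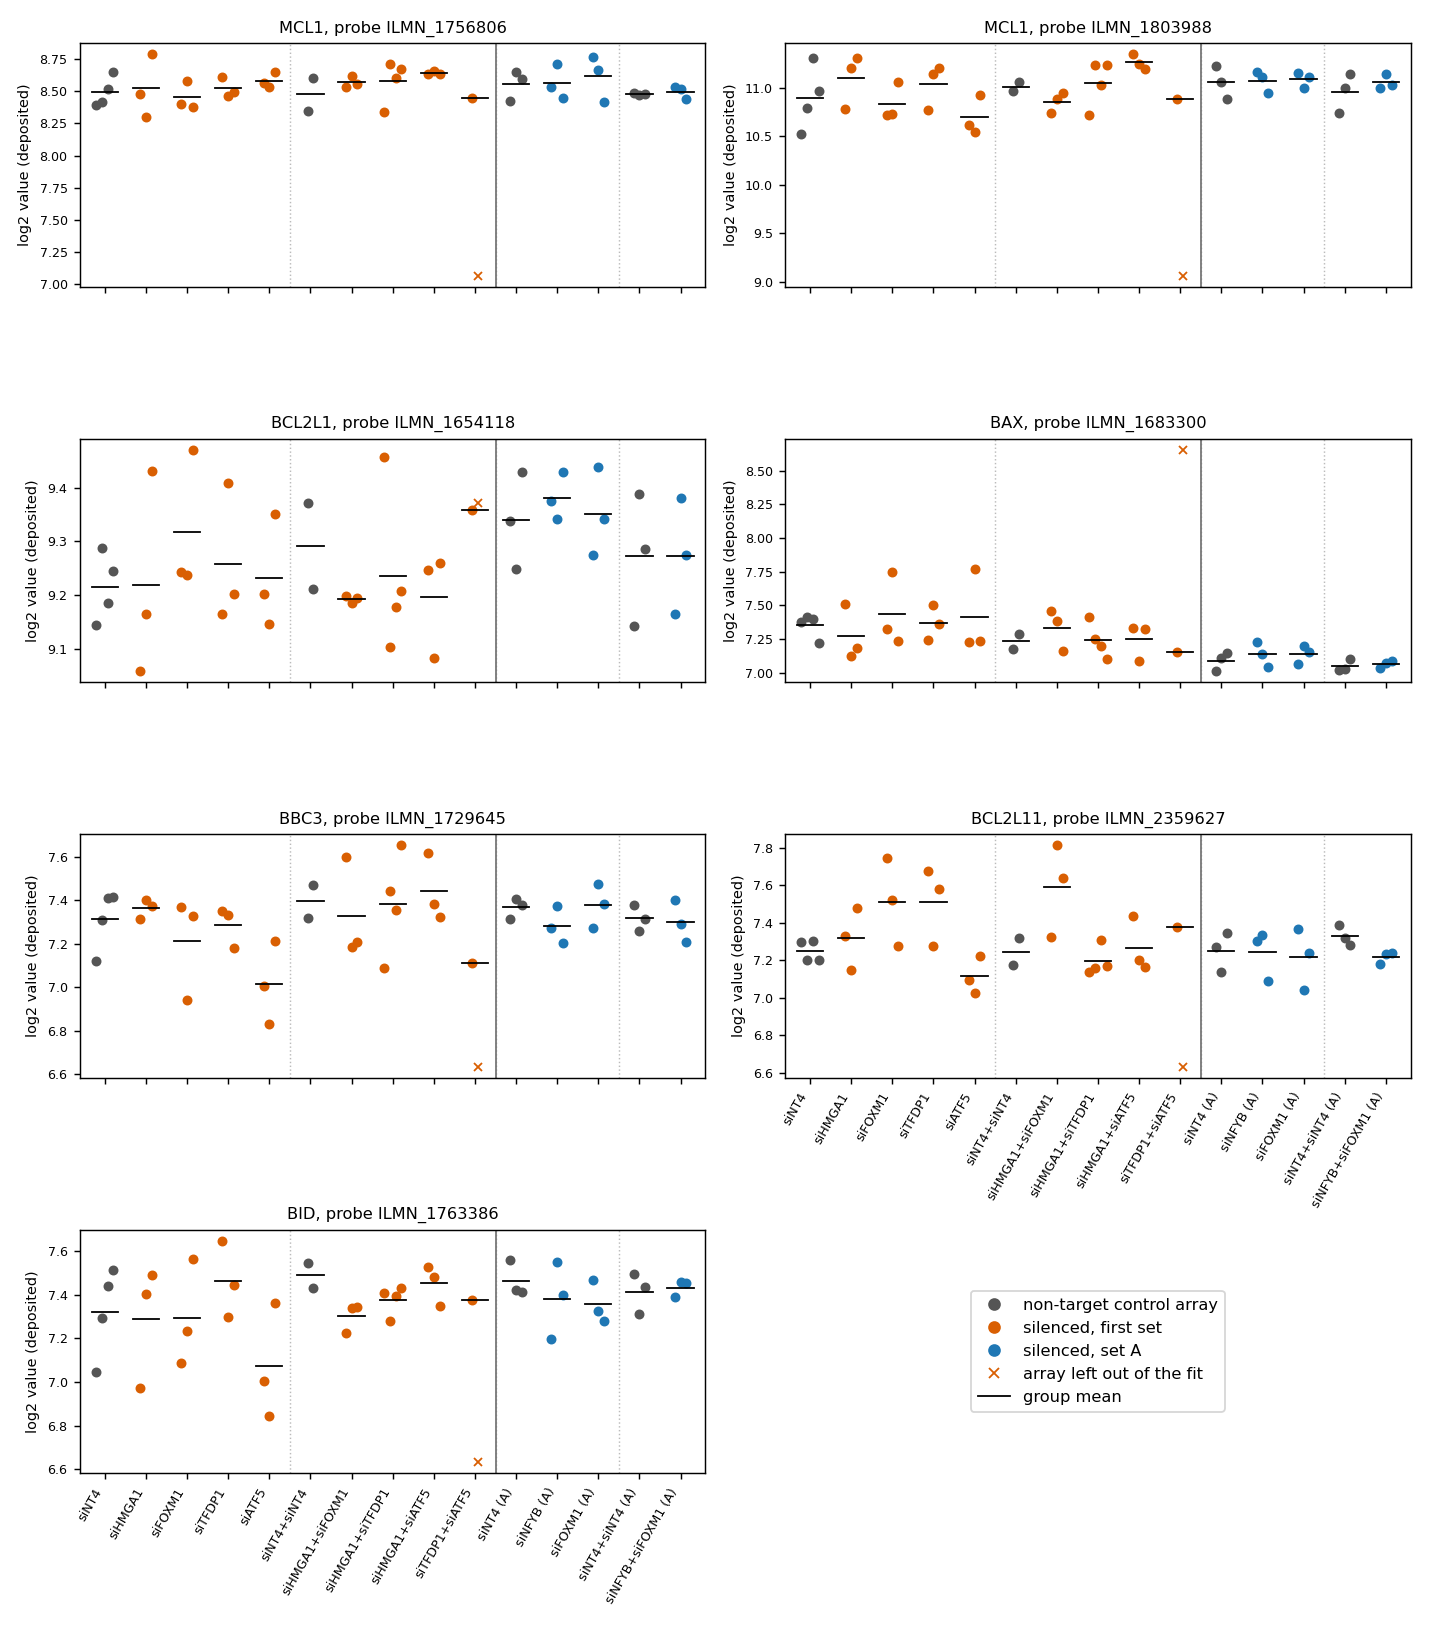
Deposited log2 values on each array by siRNA group for MCL1 (2 probes), BCL2L1, BAX, BBC3, BCL2L11 and BID, drawn as for BCL2, each panel with its own y axis. BCL2L1 stays between 9.06 and 9.47, BAX reads 7.01 to 7.23 in set A, and BBC3 and BID are lowest on average in siATF5, at 7.02 and 7.07.

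Across the 19 comparisons, the BCL2 change in siATF5 was the 1 member test that passed. The median change of the 10 member probes was -0.09 in siATF5, where the median of all probes was -0.01, and between -0.09 and 0.04 in the other 10 silencings, where the median of all probes was at most 0.01 in size. At unadjusted p under 0.05 there were 3 member probes in siATF5 (21.8% of all probes), 3 in siTFDP1 (12.0%), 2 in siFOXM1 (10.3%), 2 in siHMGA1+siFOXM1 (8.89%) and 1 in siHMGA1+siTFDP1 (3.14%). There were 0 in siHMGA1 (2.24%), siHMGA1+siATF5 (3.84%), siTFDP1+siATF5 (2.80%) and set A's siNFYB (1.75%), siFOXM1 (1.98%) and siNFYB+siFOXM1 (2.34%). Between controls there were 0 in the first set (3.51%) and 3 in set A (10.2%), namely BCL2 and both PMAIP1 probes. For departures from additivity, BCL2 alone had such a p, in siHMGA1+siATF5 (6.56%) and siTFDP1+siATF5 (12.7%), and there were 0 members in siHMGA1+siFOXM1 (3.09%), siHMGA1+siTFDP1 (3.86%) and siNFYB+siFOXM1 (1.82%). BCL2 was also the 1 member with such a p in the contrast of siFOXM1 between sets (4.53%). The SE of a member's change had a median of 0.12 in the single silencings of the first set.

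**Figure D5:**
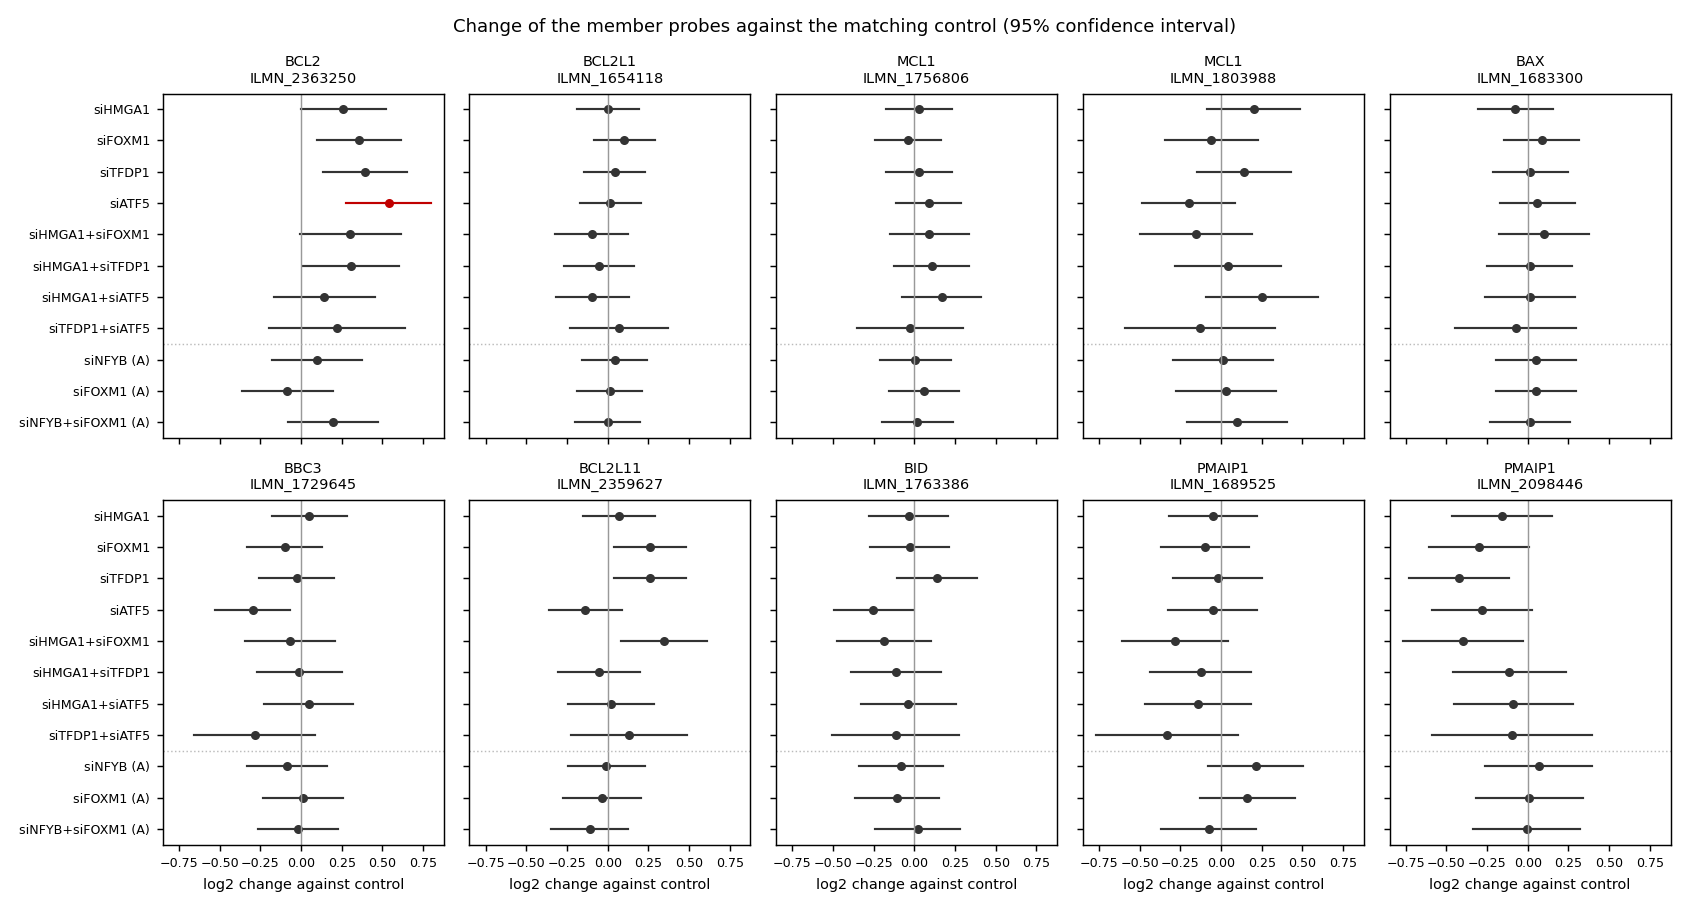
Log2 change against the matching control (x axis, points, with 95% confidence intervals) of the 10 tested member probes in the 11 silencings (y axis, set A below the dotted line). BCL2 in siATF5, in red, is the 1 change past the threshold, and the intervals of BCL2L1 and both MCL1 probes hold 0 in all 11.

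Around the family, 68 genes in 8 lists were looked at: other BCL2-related genes, caspases, inhibitors of apoptosis, mitochondrial pore and release genes, the death receptor arm, MCL1 turnover, p53 targets and stress factors. Of these, 61 had a probe, and 57 probes of 41 genes were tested. In 10 of the 11 silencings 0 of the 57 passed, and in siATF5 2 passed upward and 2 downward. Over all tested probes 3.37% passed in siATF5, 1.75% upward, and at most 0.0512% in each of the others. ATF3, a stress-induced bZIP factor, rose by 0.50 with ILMN_2374865 (limma adjusted p = 0.00279), with all 3 arrays above all 4 controls. Its other probes, which did not pass the filter, were at -0.04 and -0.04. BIRC2, which encodes the ubiquitin ligase cIAP1, rose by 0.38 (adjusted p = 0.0383), while its second probe was at -0.19. HTRA2, a mitochondrial protease that counters inhibitors of apoptosis once released, fell by 0.46 (adjusted p = 0.0378), with a second probe at 0.06. BIRC5, the survivin gene, fell by 0.32 (adjusted p = 0.0499), with another probe, under the filter, at -0.09. None of the 4 passed with all 45 arrays, where the adjusted p ranged from 0.332 to 0.45. Among the 9 tested probes of other BCL2-related genes, 0 passed in siATF5, and their median change was -0.05.

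The likeness of other genes to each member was measured as Pearson's r over the 44 arrays after each set's mean was subtracted, as a description. The probe most like BCL2 was that of ARPP21 (r = 0.74), and those most like PMAIP1 (ILMN_2098446) and MCL1 (ILMN_1803988) were DCAF13 (r = 0.88) and DNAJA2 (r = 0.86). For BID, BBC3 and BAX the closest were SUMF2 (r = 0.77), HNRNPH1 (r = 0.73) and EXOC3 (r = 0.73), and for BCL2L11 and BCL2L1 they were CTU2 (r = 0.62) and HSPA5 (r = 0.57). The 99th percentile of r over the probes compared ranged from 0.38 for BCL2L1 to 0.77 for PMAIP1, with 0.69 for MCL1. A high r with PMAIP1 or MCL1 was thus not particular to the closest probe. Within the family, BCL2 and PMAIP1 (ILMN_2098446) ran opposite to each other at r = -0.70, and the 2 PMAIP1 probes ran together at r = 0.59. The arrays share groups and, most of all in siATF5 and siFOXM1, unequal shares of probes above background, so these values carry no p.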

How the data were processed

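Per the labels' protocols, total RNA was purified and biotinylated cRNA was hybridised, 1 array per sample. The values used are the authors' deposited log2 values of 45013 probes. How they were background-corrected and normalized is not given in these sources. Of the raw table, 90 signal and detection columns named by chip position could not be tied to samples and were not used, so the designs' detection p-values were replaced by a margin of 0.5 log2 over the array median on at least 3 arrays, which 13679 probes met. Groups came from titles and probe genes from the platform annotation. On 44 arrays, R 4.3.3 and its package limma 3.58.1 gave moderated two-sided tests (eBayes after lmFit) of contrasts of group means, with p-values adjusted by Benjamini-Hochberg over every tested probe and a threshold of 0.05. The number of arrays limits the precision. The scripts were tested on simulated data.

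The members, lists and tests were chosen with earlier results of these data known. Array values are given for each member probe past the threshold and, where there was none, for that of smallest p. Lists are described by counts. Alternatives covered the array left out, weights, filters, scaling, a covariate, pooled controls, the replicate number and each array.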

Additional observations from a re-analysis of the deposited data

Results flagged for a closer look

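The array left out of the model, siTFDP1+siATF5 replicate 3, read above all 6 first-set control arrays for some member probes, tested and untested. The share of all probes that did so was not counted, and 44.5% of this array's probes were above background. BCL2 read 8.96 with ILMN_2363250, 8.72 with ILMN_1801119 and 7.47 with ILMN_2246956, where the highest controls were 7.57, 6.93 and 7.23. BAX read 8.66 with ILMN_1683300 and 8.79 with ILMN_2258383, against 7.41 and 7.17. BCL2L11 read 8.62 with ILMN_1774997 against 7.14, while its probe ILMN_2359627 lay at the array's minimum of 6.63. BCL2L1 read 9.37 with ILMN_1654118, level to 2 decimals with its highest control. MCL1 and PMAIP1 read lower than any other array, with MCL1 at 7.06 and 9.06 and PMAIP1 at 9.05 and 7.96. On this array 16823 probes shared the minimum value, against at most 3 on any other, and the part of that in these readings was not tested. Within groups of 4 arrays, 0 of 42 sets of member values held an array far from the others.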

How the results depend on the processing

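Among counts of member probes past the threshold under an alternative, 368 were within 1.5 times the reported count and 14 were not. Outside siATF5 the reported count was 0, and a count within that range could only be 0 again. Where few of all probes pass, such a match says little about robustness. In siATF5, where 1 passed, the count was 0 with all 45 arrays, with array weights, with the first set alone, with each array's share of probes above background in the model and without both siATF5 replicates 1 and 2, an alternative chosen after seeing the data. It was 2 with no filter and 2 with both control types pooled, where 1148 of 45013 and 1072 of 13679 probes passed. When 1 array was left out it ranged from 0 to 4, being 0 without siATF5 replicate 1 or 2. It was 4 without replicate 3, where 2402 of 13661 probes passed. In siTFDP1+siATF5 it was 8 with all 45 arrays, where 52.6% of probes passed, against 0. Between the set A controls, where 0 passed, it was 1 (PMAIP1) with array weights, with set A alone and with the replicate block. Replicate numbers were not taken to pair the arrays, since same-numbered arrays had deviations correlated at r from -0.36 to 0.53 in the first set and from -0.17 to 0.27 in set A. As a hint from the data, the first-set median was 0.18 against -0.11 for other numbers, with 17 of 28 arrays closest to their own number, and in set A 7 of 15 were. PMAIP1 (ILMN_1689525) had an adjusted p = 0.013 with the replicate block, which changed no other call of a member. No called change reversed its sign, although several alternatives left the values of both groups untouched. Over all probes, the siATF5 count of 461 ranged from 5 with the covariate to 1148 with no filter, and from 27 to 2402 when 1 array was left out. That of the set A controls, 55, ranged from 0 to 599 and was 0 without siNT4+siNT4 replicate 3, and that of siTFDP1, 7, from 1 to 33. In siFOXM1 it rose from 0 to 93 without replicate 3, and in siHMGA1+siFOXM1 from 1 to 223 without replicate 3. Departures from additivity rose from 3 to 30 for siHMGA1+siATF5 and from 7 to 129 for siTFDP1+siATF5 without siATF5 replicate 3. The causes were not tested. Member probes near the array median, with few arrays above it, limit what could be seen for BCL2A1, BAX, BBC3, BCL2L11 and BID.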
